A study of Arabidopsis thaliana with 45 samples.

Results

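The mitochondrial genome of Arabidopsis was represented in the deposited count table by 114 loci whose identifiers begin with ATMG, out of 27587 loci in all. Every locus with that prefix was taken, and the counts of its transcripts were summed. Of the 114 loci, 72 had at least 10 counts in 3 or more of the 45 libraries, and 42 did not, of which 7 were at 0 in every library. The 72 loci held 99.7% of all mitochondrial counts. Among the loci within that limit the lowest mean was 3.67 counts per library, and among those outside it the highest was 3.93.

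The plant mitochondrial genome encodes a small set of proteins: subunits of the respiratory complexes and of the ATP synthase, proteins that mature cytochrome c, and some ribosomal proteins. The other subunits come from nuclear genes and are imported, and nuclear genes also supply the RNA polymerases, splicing factors and editing factors that make the mitochondrial transcripts. Plant mitochondrial transcripts mostly lack stable poly(A) tails, and the labels do not state how RNA was selected for sequencing. Dry seeds store mitochondria in a simple form, and respiration starts within hours of water uptake.

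RNA came from whole seeds of the Col-0 background. Libraries labelled cyp are given as mutants of CYP79B2 and CYP79B3, whose enzymes make the precursor of indolic glucosinolates. Those labelled myb are given as mutants of MYB28 and MYB29, which activate the synthesis of aliphatic glucosinolates. Those labelled qko are given as mutants of all 4 genes, and the wild type is WT. Seeds of each genotype were imbibed for 6 h in 8 µM KSCN, in 10 mM KNO3 or in water, or were left dry. There were 3 libraries in 13 of the 16 groups, and 2 in the groups cyp in KSCN, myb in KNO3 and dry myb. Nothing in the labels says whether replicates came from separate plants, so a p-value measures the spread between these libraries, which may be technical.

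Library totals ran from 18097331 to 22910834 estimated counts, and the mitochondrial loci held 4190 to 50987 of them. The targeted genes did not bear out the labels. CYP79B3 had 10 to 124 counts in libraries labelled cyp, 3 to 38 in those labelled qko, 1 to 14 in myb and 0 to 5 in WT, and CYP79B2 had 6 to 31 in cyp, 0 to 5 in qko and 0 to 3 in WT. MYB28 was at 0 in all 45 libraries and MYB29 had 0 to 6 in myb, 0 to 14 in qko and 0 in every WT library, so neither tests its mutation. Every direction given for a mutant below is therefore for libraries labelled that way. Storage protein and oil body genes, embryo markers, held 2.44% of counts in cyp in water and 20.8% in WT dry seeds, with the other 14 groups between. Seed coat markers were near 0: TT10 reached 4 counts, TT12 2, MUM2 12, GPAT5 20 and BAN 26. Replicate 7 of the imbibed qko libraries stood apart from replicates 4 and 6, in mitochondrial counts and over all genes, and results that rest on it are given with and without it. In bulk seeds fewer mitochondria or cells of one kind cannot be told apart from less RNA in each.

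Gene names were used only where the reference notes describe the locus, which was so for 17 of the 72 loci. The other 55 loci are given by identifier. Those 17 loci held 26.8% of the mitochondrial counts. For all 17 the notes name a most similar locus on chromosome 2, where a large piece of mitochondrial DNA is inserted, and reads of such copies are divided by estimation. Of the counts of each pair, the nuclear copy held 50.9% for ATMG01190 (ATP synthase subunit 1), 54.2% for ATMG00730 (cytochrome c oxidase 3) and 96.7% for ATMG00590 (cytochrome b). It held 0.602% for ATMG00410 (ATPase subunit 6-1) and 4.06% for ATMG00180 (cytochrome c biogenesis). The level of one copy alone is therefore uncertain, and the main results for the described loci are given also for the sum of the pair.

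Mitochondrial loci made up a small share of all counts, and that share was lower after 6 h in water than in dry seeds in 3 of 4 genotypes. Seeds labelled cyp had 0.0205%, 0.0254% and 0.0196% of counts in mitochondrial loci in water, against 0.141%, 0.113% and 0.112% when dry. Those labelled myb had 0.0701%, 0.0750% and 0.0836% in water, against 0.138% and 0.125% dry. WT had 0.0518%, 0.0509% and 0.0392% in water, against 0.0566%, 0.0541% and 0.0610% dry. In each of these genotypes every water library lay below every dry one, and the gap was widest in cyp. The qko libraries had 0.0732%, 0.0786% and 0.170% in water, against 0.0718%, 0.106% and 0.0753% dry, so these groups overlapped, with replicate 7 in water the highest.

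Water over dry, the share was 0.179-fold in cyp, 0.578-fold in myb, 1.19-fold in qko and 0.822-fold in WT. The mean log2 difference over the 4 genotypes was -0.83 (exact permutation test within genotypes, two-sided, p = 0.0089, adjusted over 12 tests 0.0214; 12 libraries in water, 11 dry). Within a genotype the smallest p this design allows is 0.1. Without both libraries of cyp replicate 8 the mean was -0.87 with an adjusted p of 0.0678 (exact permutation test), which ended the call. The difference was not smaller there, but fewer cyp libraries on either side allow fewer arrangements. Storage and oil body counts, which take a large share of a dry library, fell in the same comparison to 2.44% in cyp in water against 11.1% in dry seeds, and to 11.1% in WT in water against 20.8% dry. With those counts taken off the total the mean log2 difference was -0.98 (exact permutation test, adjusted p = 0.00603).

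**Figure D1:**
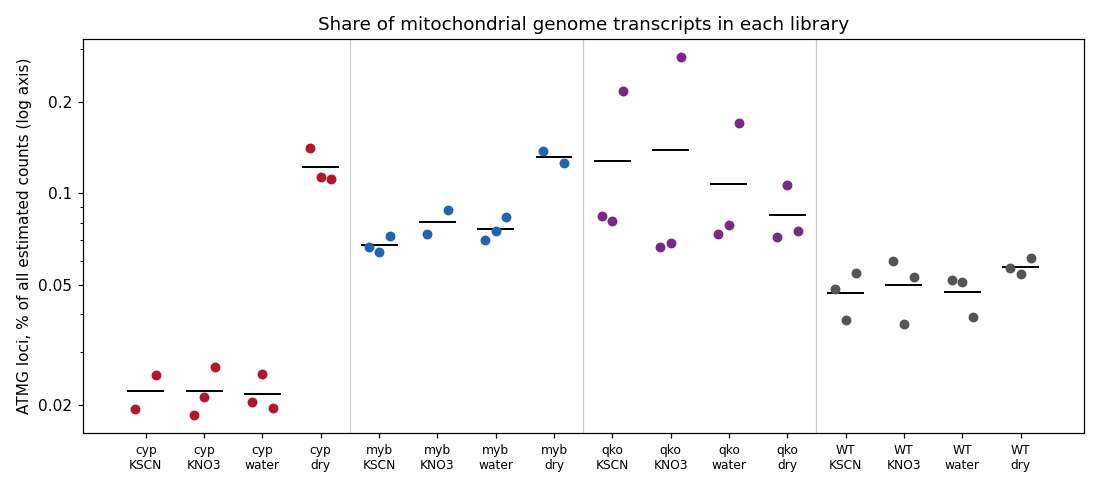
Percent of all estimated counts that lay in ATMG loci in each of the 45 libraries (log axis), by genotype label and treatment, with points for libraries and bars for group means. The imbibed cyp libraries lie between 0.0186% and 0.0268%, below every other library, and the highest 3 points are replicate 7 of the imbibed qko groups.

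For neither nitrogen compound did the difference in share from water pass the test. Over the 4 genotypes KNO3 against water differed by 0.07 on the log2 scale (exact permutation test, adjusted p = 0.837) and KSCN against water by 0.01 (adjusted p = 0.938). WT had 0.0598%, 0.0370% and 0.0530% in KNO3 and 0.0483%, 0.0381% and 0.0545% in KSCN, which spans the values in water. Seeds labelled myb had 0.0733% and 0.0878% in KNO3 and 0.0665%, 0.0638% and 0.0724% in KSCN. Their water libraries had 0.0701%, 0.0750% and 0.0836%, which overlapped with both groups. In cyp the share was 0.0186%, 0.0213% and 0.0268% in KNO3 and 0.0194% and 0.0252% in KSCN. These 5 libraries span the range of the cyp libraries in water, and a p above the threshold does not show that the treatments act alike. In qko replicates 4, 6 and 7 had 0.0663%, 0.0683% and 0.282% in KNO3 and 0.0839%, 0.0813% and 0.217% in KSCN, against 0.0732%, 0.0786% and 0.170% in water. Replicate numbers pair the qko libraries here: all 3 pairs were higher in KSCN than in water (mean log2 difference 0.20, exact sign permutation test, two-sided, p = 0.25, the smallest that 3 pairs allow), and 1 of 3 was higher in KNO3. For single loci edgeR called 0 of 76 tested mitochondrial loci for either compound in any genotype or over all 4. At an unadjusted p under 0.05 there were 0 to 3 loci per comparison, and DESeq2 called 1 locus in cyp with KNO3, 1 over all genotypes with KNO3 and 0 elsewhere. Of all loci tested, 1.98% were called in cyp with KNO3, 0.149% over all genotypes with KNO3 and 0.0% in each other comparison of this kind.

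Relative to WT, the libraries labelled myb and qko had a higher mitochondrial share under all 4 treatments, while those labelled cyp had a higher share dry and a lower one imbibed. The share in myb over WT was 1.45-fold in KSCN, 1.64-fold in KNO3, 1.62-fold in water and 2.30-fold in dry seeds, with no overlap of libraries in any treatment. Over treatments the mean log2 difference was 0.79 (exact permutation test, p = 2.5e-05, adjusted p = 1e-04; 10 libraries against 12). In qko the share over WT was 2.45-fold in KSCN, 2.21-fold in KNO3, 2.12-fold in water and 1.46-fold dry, a mean log2 difference of 1.02 (adjusted p = 7.5e-05, exact permutation test). Without replicate 7 the folds in qko were 1.78 in KSCN, 1.37 in KNO3, 1.62 in water and 1.53 dry, again with no overlap with WT, and the mean log2 difference was 0.65 (exact permutation test, adjusted p = 4e-04). These tests took the qko libraries of different treatments as independent. However, qko replicates of the same number deviated together between water and KNO3 or KSCN (correlations of deviations 0.671 to 0.861). The p-values for qko may therefore be too small.

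In the cyp libraries the share was 0.476-fold that of WT in KSCN, 0.449-fold in KNO3 and 0.463-fold in water, and 2.13-fold in dry seeds. No treatment had overlapping libraries. Dry and imbibed seeds thus lay on opposite sides of WT. The mean over treatments, -0.56 on the log2 scale, did not pass (exact permutation test, adjusted p = 0.0678), and it passed with storage counts taken off the total (-0.70, adjusted p = 0.0246).

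The plastid genome served as a second organelle within the same libraries, although its 81 loci held only 236 to 1007 counts per library. The ratio of mitochondrial to plastid counts in cyp was 8.33 to 12.8 in water, against 39.6 to 46.8 in dry seeds. In WT it was 25.6 to 38.6 in water, against 13.3 to 15.8 in dry seeds. The direction thus differed between these genotypes, with a fold of 0.239 in cyp and 2.22 in WT, and it was 0.994 in myb and 1.75 in qko. Plastid counts themselves made up 0.00150% in WT in water against 0.00405% in dry seeds. Averaged over genotypes the difference in ratio between water and dry seeds did not pass (log2 difference -0.03, exact permutation test, adjusted p = 0.938). In myb the ratio was 29.6 to 33.7 in KSCN against 44.5 to 51.5 in water, without overlap. That fold was 0.676 (exact permutation test, p = 0.1, the smallest possible there). KSCN over water was 1.06 in WT, 1.115 in cyp and 1.05 in qko, with overlap in each. Against WT the mean log2 difference of the ratio over treatments was 0.67 in myb (adjusted p = 0.00165) and 1.11 in qko (adjusted p = 7.5e-05; exact permutation tests). In cyp the fold over WT was 0.337 in KSCN, 0.380 in KNO3, 0.321 in water and 2.97 in dry seeds. The cyp and WT libraries did not overlap in any treatment. In myb the fold was 0.960 in KSCN, where the libraries overlapped those of WT, 1.31 in KNO3, 1.51 in water and 3.37 in dry seeds. In qko it was 2.04 in KSCN, 1.98 in KNO3, 2.07 in water and 2.62 dry, and the mean without replicate 7 was 0.91 (exact permutation test, adjusted p = 4e-04). As for the share, the p-values for qko may be too small, since its replicates of the same number are not independent across treatments.

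Among single loci, 76 mitochondrial loci had enough counts for the edgeR test, and 67 of them passed in at least 1 of 10 comparisons (water against dry within a genotype, and mutant labels against WT in water or dry). The other 9 passed in none. The levels that follow are TMM-scaled CPM: counts relative to a library total that was adjusted by trimmed means, so that the bulk of loci is balanced between libraries. In cyp, water against dry, 57 mitochondrial loci fell and 0 rose, and the median log2 change of the 76 was -2.58. Over all loci tested 79.7% were called, 40.8% as higher and 38.9% as lower, with a median of 0.04. In myb 42 fell and 1 rose with a median of -1.34, where 66.2% of all loci were called, 31.3% as lower. In qko 5 fell and 2 rose with a median of -0.31, where 69.0% of all loci were called, 36.9% as higher and 32.2% as lower. In WT 28 fell and 0 rose with a median of -0.88, where 70.6% of all loci were called, 37.1% as higher and 33.5% as lower. The qko count was thus far below the share of all loci called lower, and the WT count was close to it. The locus that rose in myb was ATMG00590, whose split from its copies is uncertain. In qko ATMG00870 and ATMG00970 rose and ATMG00285, ATMG00630, ATMG01110, ATMG01330 and ATMG01370 fell, and the split of ATMG01110 from its nuclear copy, which held 87.9% of the counts of the pair, is uncertain too. The notes name chromosome 2 loci like ATMG00970 and ATMG01330 as well, and those were not summed. ATMG00970 had 3.96, 9.52 and 15.2 counts in qko in water against 0, 1.74 and 0 dry, and ATMG01110 had 0 in each against 7.47, 10.7 and 6.31 dry, so the size of either change is uncertain.

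The number of calls rested on single libraries in qko and WT. Without replicate 7 in water 21 loci fell in qko and 0 rose, and without replicate 7 in any group 40 fell and 0 rose. Both fits used TMM scaling. The number called in qko was 4 without dry replicate 6 and 3 without water replicate 6, and the WT count was 18 without water replicate 9. Under total-count scaling, which moved the median of all loci to 0.78 in cyp, 0.75 for myb, 0.81 for qko and 0.83 in WT, 47 mitochondrial loci fell and 4 rose in cyp, where 22.8% of all loci were lower and 60.4% higher. The same scaling gave 16 lower and 1 higher in myb (all loci 14.1% and 60.9%), 1 lower and 12 higher in qko (14.2% and 64.2%) and 4 lower and 2 higher in WT (13.6% and 64.3%). More loci were thus called higher than lower in qko under this scaling. Relative to the median of all loci, the mitochondrial median in qko was -0.40 under TMM and -0.41 under total counts.

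The genotypes' water responses share no libraries, so their lists can be set against each other. All 28 loci that fell in WT also fell in cyp, where they are 49.1% of the 57. Of the 42 that fell in myb, 25 also fell in WT (59.5% of the myb list and 89.3% of the WT list) and 40 also fell in cyp (95.2% of the myb list and 70.2% of the cyp list). In all of cyp, myb and WT 25 loci fell. Over all loci tested, 89.0% of those that fell in WT also fell in cyp and made up 76.5% of the cyp list. Likewise 83.3% of the myb list over all loci also fell in WT and 85.8% in cyp. Loci with more counts fell more often in cyp, myb and WT, but not in qko. Of the 34 loci with over 5000 counts in all libraries, 34 fell in cyp, 29 in myb, 2 in qko and 23 in WT. Their median log2 change was -3.58 in cyp, -1.42 in myb, -0.36 in qko and -0.99 in WT.

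**Figure D2:**
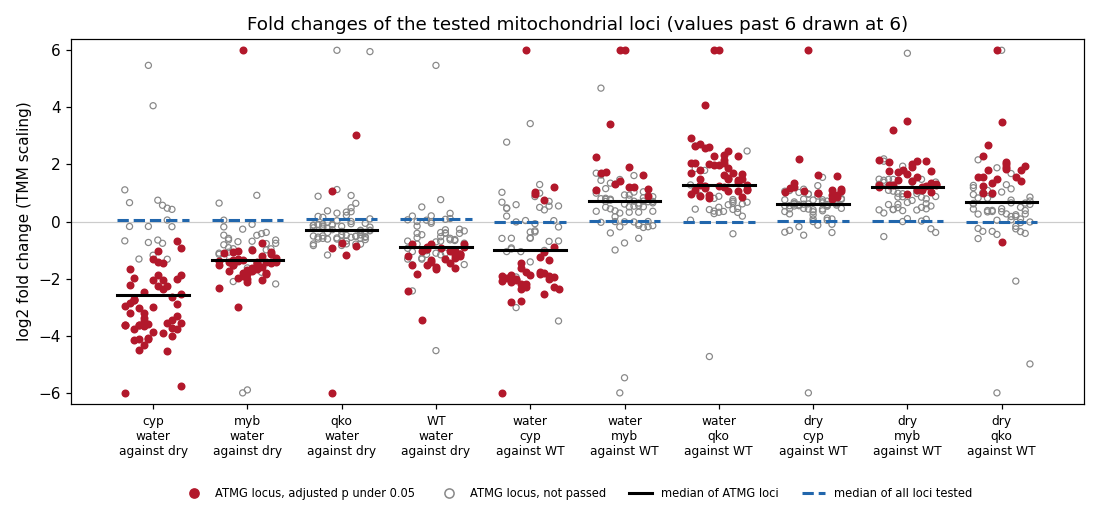
Log2 fold change of each of the 76 tested ATMG loci (points, filled where the adjusted p was under 0.05) in 10 comparisons, with the median of the ATMG loci (solid bar) and of all loci tested (dashed bar). The medians of water against dry were -2.58 in cyp, -1.34 in myb, -0.31 in qko and -0.88 in WT, and points at either end of the axis include loci with a group at or near 0.

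The response to water differed between cyp and WT at 35 loci, all with the more negative change in cyp (edgeR interaction, adjusted p under 0.05). Of all loci tested 35.2% differed, 22.8% towards the more negative change in cyp. For qko 3 loci differed, each with the less negative or more positive change in qko, where 27.7% of all loci differed: ATMG01130, ATMG00870 and ATMG01080. The qko calls rested on single libraries, with 1 call left without qko dry replicate 4 or qko water replicate 7, 5 calls without qko water replicate 6 and 6 without replicate 7 in both groups. For myb 0 loci differed by edgeR, with DESeq2 calling 1, where 11.5% of all loci differed, 5.39% upwards. At an unadjusted p under 0.05 the myb count was 3.

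The ATP synthase makes ATP from the proton gradient across the inner membrane, and its subunit 1 is ATMG01190. In cyp it had 10.9, 13.3 and 8.47 TMM-scaled CPM in water, against 292, 229 and 237 in dry seeds. In myb it had 53.6, 64.5 and 59.9 in water, against 279 and 211 dry. In WT it had 71.6, 63.5 and 53.2 in water, against 177, 153 and 191 dry. Each water library lay below each dry library of its genotype, and the cyp water libraries lay below all the others named here. The log2 change in water was -4.54 (SE 0.44, edgeR adjusted p = 1.4e-11) in cyp, -2.05 (SE 0.42, adjusted p = 6e-05) in myb and -1.47 (SE 0.39, adjusted p = 0.001) in WT.

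In qko ATMG01190 had 54.7, 56.6 and 142 TMM-scaled CPM in water, against 124, 179 and 134 dry, and the change of -0.79 did not pass (SE 0.38, edgeR adjusted p = 0.064). Replicate 7 in water was the high value, and without it the change was -1.39 (adjusted p = 0.003). The change in cyp was more negative than that in WT (log2 difference -3.07, SE 0.55, adjusted p = 3.9e-05). Summed with its copy AT2G07698, ATMG01190 changed by -4.46 in cyp and -1.41 in WT, both past the threshold. Under total-count scaling the WT change was -0.71 and was no longer called (adjusted p = 0.086).

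ATP synthase subunit 9 forms the membrane ring of the enzyme. The notes describe both ATMG01090 and ATMG01080 (mitochondrial F0-ATPase subunit 9) by that number, and they are counted as separate genes below. Of the counts of ATMG01080 and its nuclear copy, the copy held 94.4%. Their sum had a mean of 12.3 CPM by library total in cyp in water against 90.0 dry, and 19.3 in WT in water against 32.5 dry. ATMG01090, described as ATP synthase 9, had 6.33, 6.87 and 6.73 TMM-scaled CPM in cyp in water, against 99.1, 83.6 and 91.0 in cyp dry seeds. In WT ATMG01090 had 11, 9.58 and 9.31 in water, against 35.8, 33.7 and 37.5 dry. Its water groups lay below its dry groups with no overlap in either genotype, and its cyp dry libraries lay above WT dry. The log2 change of ATMG01090 was -3.78 in cyp (adjusted p = 1.3e-11), -1.73 in myb (9.2e-05) and -1.84 in WT (1.9e-05), and in dry seeds cyp was 1.35 higher than WT (SE 0.33, edgeR adjusted p = 0.0019). Summed with its copy ATMG01090 changed by -3.59 in cyp and -1.88 in WT, and dry cyp was 1.24 higher than WT (edgeR adjusted p = 0.0099). Subunit 6 belongs to the proton channel, and ATMG00410, described as ATPase subunit 6-1, had 2.83, 2.91 and 3.26 in cyp in water, against 16.1, 13.5 and 13.5 in cyp dry seeds. The fall of ATMG00410 in cyp was -2.26 (SE 0.42, edgeR adjusted p = 1.1e-05). In dry seeds ATMG00410 was higher in qko, at 24.9, 36.0 and 26.4, against 9.80, 9.17 and 10.6 in WT (log2 1.56, adjusted p = 0.0014).

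Cytochrome c oxidase is the last enzyme of the respiratory chain and passes electrons to oxygen. ATMG00730, subunit 3, had 2.15, 3.20 and 1.61 TMM-scaled CPM in cyp in water, against 32.7, 28.7 and 25 in cyp dry seeds. In WT ATMG00730 had 9.04, 10.1 and 6.93 in water, against 14.7, 12.5 and 14.6 dry. All cyp water libraries lay below all WT water libraries. The change of ATMG00730 in cyp was -3.63 (SE 0.38, edgeR adjusted p = 1.2e-10) and in water cyp was below WT by a log2 of -1.91 (SE 0.39, adjusted p = 6.9e-05). The response of ATMG00730 was more negative in cyp than in WT (log2 difference -2.95, SE 0.52, adjusted p = 2.6e-05). Summed with its copy the change in cyp was -3.64.

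NADH dehydrogenase, complex I, takes electrons from NADH. ATMG01320, described as NADH dehydrogenase 2B, had 1.89, 2.39 and 1.55 TMM-scaled CPM in cyp in water, against 35.9, 31.8 and 33.7 in cyp dry seeds (log2 -4.12, SE 0.49, edgeR adjusted p = 2.2e-09). In water ATMG01320 had 21.6, 22.5 and 53.1 in qko and 7.09, 7.44 and 5.19 in WT. The cyp libraries were the lowest of these and qko the highest, without overlap. In water cyp was below WT by a log2 of -1.76 (adjusted p = 0.0034) and qko was above it by 2.30 (SE 0.44, adjusted p = 4.3e-05), or by 1.74 without water replicate 7 (edgeR adjusted p = 0.00163). Dry seeds labelled myb had 63.3 and 57.8 of ATMG01320, against 16.8, 16.9 and 18.5 in WT, a log2 difference of 1.80 (adjusted p = 0.0018). Summed with its copy ATMG01320 changed by -3.98 in cyp in water against dry, and in water it was -1.63 in cyp and 2.14 in qko relative to WT, all past the threshold.

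Apocytochrome b is the core of complex III, and its counts could not be split between copies. ATMG00220 and ATMG00590 and their nuclear copies AT2G07727 and AT2G07718 shared reads, and single copies were at 0 in whole groups while their partners were not, so only the sum of the 4 loci is given. The summed level, listed under ATMG00220, was 23.2, 25.4 and 21.1 TMM-scaled CPM in cyp in water, against 241, 198 and 202 in cyp dry seeds. WT had 71.9, 77.3 and 57.8 in water, against 154, 137 and 164 dry. Water libraries lay below dry ones in both genotypes, and cyp in water lay lowest. The sum fell by 3.20 on the log2 scale in cyp (SE 0.43, edgeR adjusted p = 2.8e-08) and by 1.14 in WT (SE 0.40, adjusted p = 0.012). In dry seeds the myb libraries had 484 and 407, above every WT library (log2 1.55, adjusted p = 0.0046).

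Ribosomal protein S4 and a cytochrome c assembly protein also fell in cyp. Ribosomal protein S4 is a part of the small subunit of the mitochondrial ribosome. Its locus ATMG00290 was at 0 in many libraries while the copy AT2G07734 was not, so again only the sum is given. That sum, listed under ATMG00290, was 2.86, 4.94 and 3.32 TMM-scaled CPM in cyp in water, against 48.2, 39.6 and 36.9 in cyp dry seeds, and 14.8, 13.2 and 11.4 in WT in water, against 26.1, 27.6 and 29.9 dry. No groups of a genotype overlapped, and the log2 change was -3.49 in cyp (SE 0.36, edgeR adjusted p = 6.8e-11) and -1.09 in WT (SE 0.33, adjusted p = 0.004). The response of S4 was more negative in cyp than in WT (ATMG00290, log2 difference -2.40, SE 0.48, edgeR adjusted p = 0.00016). ATMG00560, described as a nucleic acid-binding protein with an OB-fold, changed by -1.65 in cyp when summed with its copy (SE 0.35, edgeR adjusted p = 6.3e-05). Its difference in response from WT, -0.92, did not pass (SE 0.49, adjusted p = 0.14). ATMG00960, described as a cytochrome c assembly protein, whose copy had no counts, had 0.578, 0.883 and 0.506 in cyp in water, against 3.87, 2.33 and 1.90 in cyp dry seeds (log2 -2.04, SE 0.43, adjusted p = 5.7e-05).

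Counted over the described loci as genes, with copies summed and the apocytochrome b loci joined, 16 genes were read. In water against dry seeds 16 of 16 fell in cyp (median log2 change -3.11), 15 in myb (-1.45), 1 in qko (ATMG01280; median -0.48) and 10 in WT (-1.10), and 0 rose in any genotype. Of all loci, 38.9% were called lower in cyp, 31.3% in myb, 32.2% in qko and 33.5% in WT. These counts are under TMM scaling, and the sums were not fitted under total-count scaling. By library total the WT means moved in both directions. ATMG00180 had 10.1 CPM in water against 7.58 dry, and ATMG01190 had 141 against 222. Without replicate 7 the qko count was 15 lower (median -1.03). That count rests on TMM factors of 1.042 to 1.071 in qko in water and 0.624 to 0.644 dry. By library total the mitochondrial shares of qko replicates 4 and 6 overlapped, at 0.0732% and 0.0786% in water against 0.0718% and 0.106% dry. In water 11 genes were lower and 0 higher in cyp than in WT, 4 were higher and 0 lower in myb, and 14 were higher and 0 lower in qko, with or without replicate 7 (medians 1.25 with it and 0.71 without). Of all loci, 31.9% were called lower in cyp, 17.9% higher in myb and 25.8% higher in qko. In dry seeds 4 were higher in cyp, 8 in myb and 6 in qko, and 0 were lower, where 16.1%, 20.6% and 25.4% of all loci were higher. The response to water was more negative in cyp than in WT for 11 of the 16 genes, against 22.8% of all loci, and 0 genes differed from WT in myb or qko by edgeR (0 in myb and 3 in qko at an unadjusted p under 0.05). Without replicate 7 the qko count was 2, ATMG01080 (0.61) and ATMG01090 (0.64), both less negative in qko.

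Several loci without a description gave among the smallest p-values. ATMG00090 had 9.06, 13.7 and 8.06 TMM-scaled CPM in cyp in water, against 140, 118 and 113 in cyp dry seeds (log2 -3.59, SE 0.36, edgeR adjusted p = 3.8e-11). In WT ATMG00090 had 51.8, 48.3 and 40.1 in water, against 82.6, 74.5 and 84.7 dry, so the cyp libraries were the highest dry and the lowest in water. ATMG00513 had 4.95, 7.09 and 3.89 in cyp in water, against 71.0, 58.3 and 59.3 in cyp dry seeds (log2 -3.57, adjusted p = 2.5e-09). In water ATMG00513 was lower in cyp than in WT, which had 31.2, 29.6 and 20.2, by a log2 of -2.35 (SE 0.42, adjusted p = 1.1e-05). ATMG01360 showed no change past the threshold in WT (log2 0.08, adjusted p = 0.84), with 26.4, 34.6 and 22.4 in WT in water, against 25.7, 26.3 and 27.0 dry, groups that overlapped. In cyp ATMG01360 had 7.71, 10.3 and 6.77 in water, against 48.4, 39.2 and 40 dry (log2 -2.37, SE 0.34, adjusted p = 1.2e-07). ATMG00580 had 66.8, 71.0 and 174 in qko in water, against 28.3, 26.1 and 22.0 in WT in water, without overlap (log2 2.03, SE 0.41, adjusted p = 8.2e-05). Without qko water replicate 7 the difference of ATMG00580 was 1.43 (edgeR adjusted p = 0.00373).

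Maturation of cytochrome c needs proteins that attach its haem, and ATMG00180, the cytochrome c biogenesis locus, gave values unlike those of the respiratory subunits in cyp. In cyp ATMG00180 had 13.8, 14.3 and 12.1 TMM-scaled CPM in water, against 30.1, 23.9 and 21.9 in dry seeds. In WT it had 8.38, 10.6 and 8.51 in water, against 11.4, 10.0 and 13.1 dry. In water the cyp libraries lay above the WT libraries without overlap, but for the sum with the copy the difference did not pass (log2 0.56, SE 0.37, edgeR adjusted p = 0.19). The change in cyp was -0.91 (SE 0.36, edgeR adjusted p = 0.022). That call was lost without cyp dry replicate 7 (-0.77), without cyp water replicate 9 (-0.84), without both libraries of replicate 8 (-0.99) and under total-count scaling (-0.18). The difference in the response of ATMG00180 between cyp and WT did not pass (-0.59, SE 0.54, adjusted p = 0.42). Within the mitochondrial counts, ATMG00180 made up 8.46% ± 0.79 in cyp in water against 1.69% ± 0.10 dry, and 2.08% ± 0.29 in WT in water against 1.26% ± 0.079 dry (SD, n = 3 each). ATMG01190, by contrast, made up 6.79% in cyp in water against 17.0% dry.

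**Figure D3:**
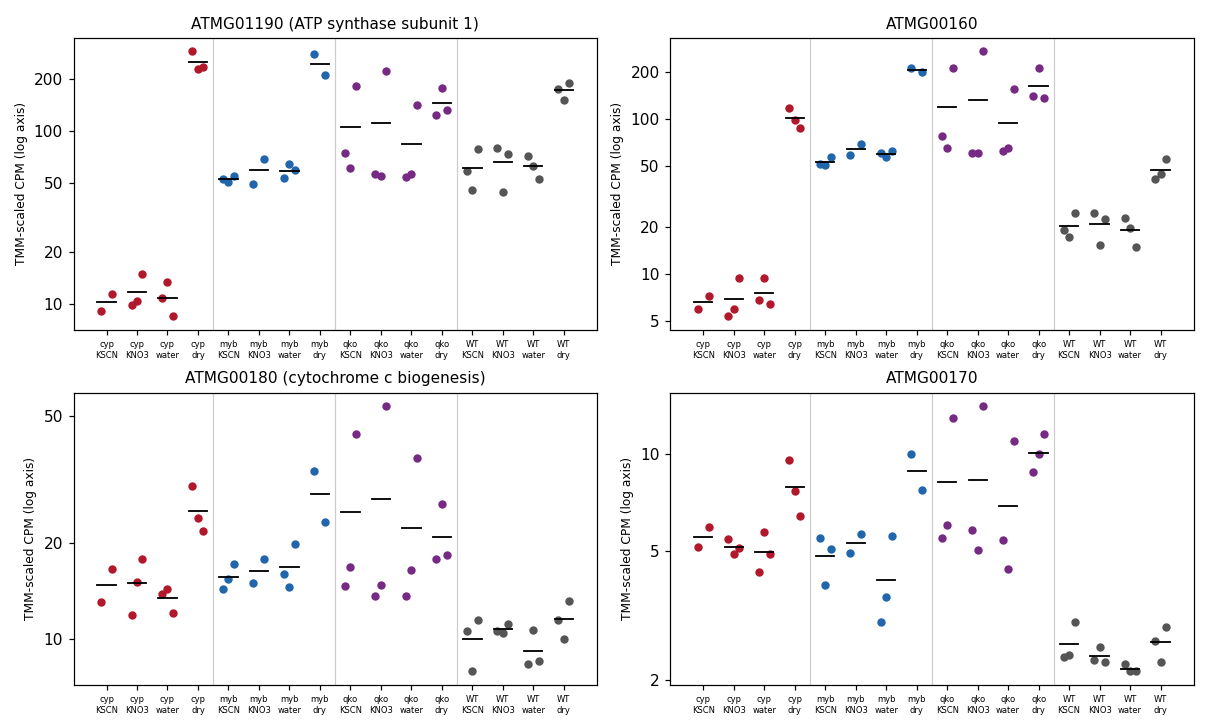
TMM-scaled CPM (log axes) of ATMG01190, ATMG00160, ATMG00180 and ATMG00170 in each library, by genotype label and treatment, with bars for group means. ATMG01190 and ATMG00160 are lowest in the imbibed cyp libraries, while the group means of ATMG00180 and ATMG00170 are lowest in WT.

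A few loci with no description were higher in cyp than in WT in water, against the direction of most mitochondrial loci. In water 31 loci were lower and 5 higher in cyp, where 63.1% of all loci were called, 31.9% as lower and 31.2% as higher. Under total-count scaling, where the median of all loci was 0.36, 27 were lower and 9 higher (all loci 18.8% and 49.6%). Besides ATMG00590, whose split between copies is uncertain, the higher loci were ATMG00170, ATMG00630, ATMG00940 and ATMG01370. ATMG00170 had 4.30, 5.75 and 4.90 TMM-scaled CPM in cyp in water, against 2.24, 2.14 and 2.13 in WT in water, with no overlap (log2 1.2, SE 0.33, edgeR adjusted p = 0.002). Its call held without each single library. The calls of the other loci did not: ATMG00630 (0.97) was lost without cyp water replicate 7 (0.93) or 9 (0.87) and WT water replicate 5 (0.81) or 9 (0.94), ATMG00940 (1.04) without cyp water replicate 9 (0.84) or WT water replicate 8 (0.59), and ATMG01370 (0.76) without WT water replicate 5 (0.69) or cyp replicate 8 (0.70). ATMG01370 had 4.75, 5.59 and 5.06 in cyp in water, against 5.35, 4.60 and 4.86 in cyp dry seeds, which overlapped (log2 0.05, adjusted p = 0.86). ATMG00170 made up 3.13% ± 0.29 of the mitochondrial counts in cyp in water, against 0.529% ± 0.055 in dry seeds (SD, n = 3 each).

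In dry seeds mitochondrial loci called in myb, qko and cyp were above WT, with 1 exception. In myb 29 loci were higher and 0 lower with a median log2 difference of 1.22, where 38% of all loci were called, 20.6% as higher. In qko 20 were higher and 1, ATMG01130, lower with a median of 0.69, where 49.0% of all loci were called, 25.4% as higher. The 20 of 76 are close to that share. In cyp 18 were higher and 0 lower with a median of 0.63, where 29.4% of all loci were called, 16.1% as higher. The median of all loci was 0.03 or less in each comparison.

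Several of these counts hung on 1 library. The cyp count was 5 without cyp replicate 7, 11 without cyp replicate 8, and 5, 6 and 10 without WT replicates 5, 8 and 9, and under total-count scaling (median of all loci 0.41) it was 36, where 47.9% of all loci were higher and 3.11% lower. The myb count was 11 without myb replicate 5, and the qko count was 11 without WT replicate 8 and 38 without qko replicate 7. ATMG01130 in dry qko had 7.98, 10.5 and 8.97 TMM-scaled CPM, against 16.1, 15.8 and 13.6 in WT dry seeds, with no overlap (log2 -0.73, SE 0.29, edgeR adjusted p = 0.035). That call was lost without qko replicate 4 (-0.64) or 7 (-0.71) and without WT replicate 5 (-0.69) or 8 (-0.70).

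ATMG00160, a locus with no description that held 8.25% of all mitochondrial counts, was above WT in dry seeds of all mutant labels. It had 213 and 200 TMM-scaled CPM in myb, 141, 212 and 137 in qko, 117, 97.9 and 87.9 in cyp, and 41.3, 44.1 and 55.5 in WT. Every mutant library lay above every WT library, and those labelled myb and qko overlapped with each other but not with cyp. The log2 difference of ATMG00160 from WT was 2.14 in myb (SE 0.44, edgeR adjusted p = 0.00019) and 1.80 in qko (SE 0.41, adjusted p = 0.0004). In cyp it was 1.11 (adjusted p = 0.036), a call lost without any one of the cyp replicates 7 (0.99) and 8 (1.13) and the WT replicates 5 (1.03), 8 (1.07) and 9 (1.25), and with DESeq2 (1.06). ATMG00170 in dry seeds had 10.0 and 7.76 in myb, 8.77, 10.0 and 11.5 in qko, 9.59, 7.71 and 6.43 in cyp, and 2.65, 2.27 and 2.91 in WT. Each mutant stood above WT without overlap, by a log2 of 1.76 in myb (adjusted p = 0.0003), 1.95 in qko (1.6e-05) and 1.60 in cyp (0.00061).

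In water the order of genotypes was another, with most loci of cyp below WT. ATMG00160 in water had 6.84, 9.48 and 6.42 TMM-scaled CPM in cyp, 60.1, 56.6 and 62.6 in myb, 62.0, 64.7 and 157 in qko, and 22.9, 19.9 and 15.1 in WT. The log2 difference of ATMG00160 from WT was -1.35 in cyp (adjusted p = 0.0072), 1.63 in myb (0.0021) and 2.29 in qko (2.3e-05; edgeR), or 1.71 in qko without water replicate 7. Across the loci, 15 were higher and 0 lower in myb, where 35.6% of all loci were called, 17.9% as higher, and 47 were higher and 0 lower in qko, where 50.7% were called, 25.8% as higher. Medians over the mitochondrial loci were -0.98 for cyp, 0.73 for myb and 1.27 for qko. The myb count was 9 without WT replicate 5 and 7 without WT replicate 9. The qko count was 20 without qko replicate 7, of which 19 were higher and 1 lower.

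**Figure D4:**
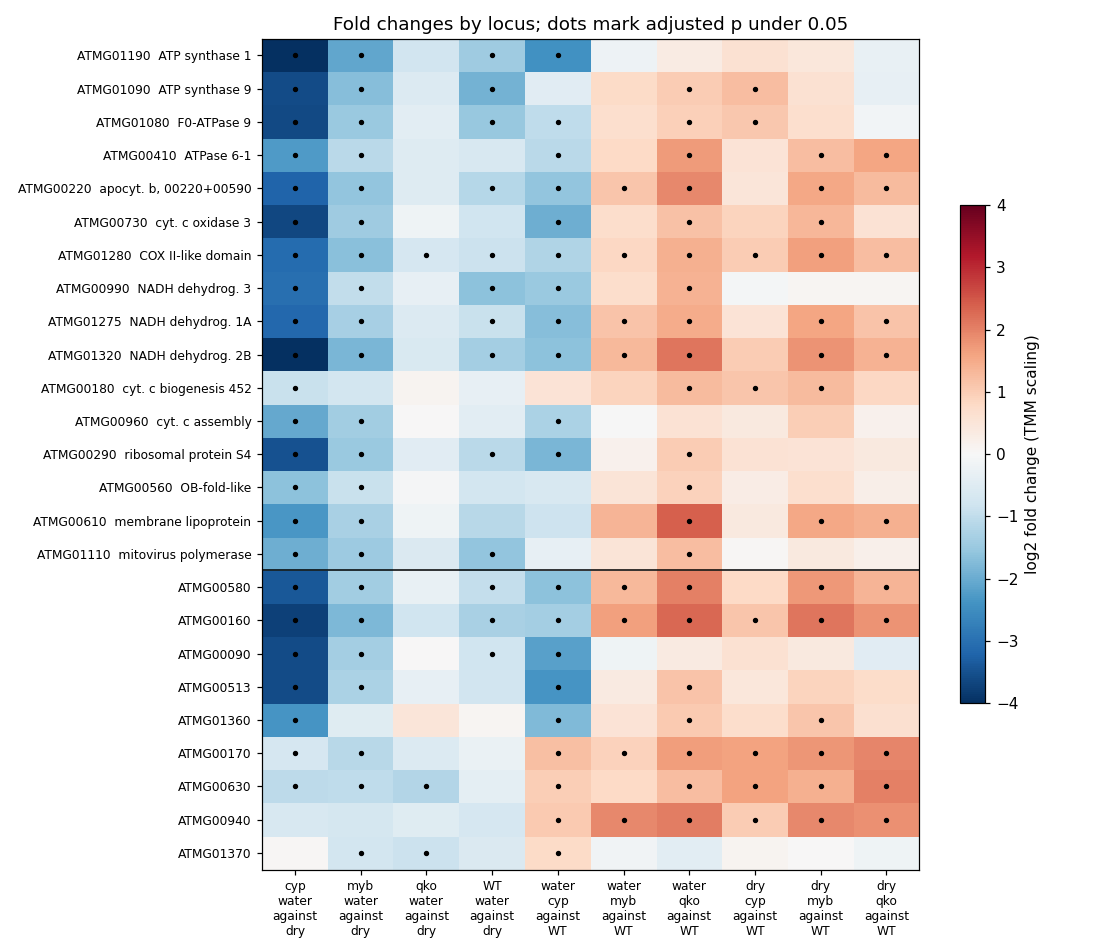
Log2 fold change (colour, TMM scaling, clipped at 4 either way) of the described loci that passed the count limit, above the line, and of further loci named in the text, below it, in 10 comparisons, with dots where the adjusted p was under 0.05. Described loci are summed with their chromosome 2 copies, and ATMG00220 with ATMG00590. The cyp column of water against dry is the darkest, and ATMG00170, ATMG00630, ATMG00940 and ATMG01370 are the rows with a dot and a higher value in cyp than in WT in water.

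Replicate 7 of the imbibed qko groups was high across the mitochondrial genome rather than at a few loci. Of the 72 loci, 69 in KSCN, 67 in KNO3 and 67 in water lay above the mean of qko replicates 4 and 6 of the same treatment (CPM by library total, plus 0.5). The median ratio was 2.18 in KSCN, 3.12 in KNO3 and 1.81 in water. In dry seeds 12 of 72 loci lay above that mean, with a median ratio of 0.874. Over all 15319 loci compared, the median ratio was 1.01 in KSCN, 1.0 in KNO3, 0.969 in water and 1.01 in dry seeds. Replicate 7 also differed from the others over all genes. The mean chi-square per gene between replicate 7 and replicates 4 and 6 was 62.5 and 69.1 in KSCN, 80.0 and 80.8 in KNO3 and 75.5 and 76.3 in water, against 12.4, 7.42 and 7.03 between replicates 4 and 6. In dry seeds it was 7.19 and 13.4, against 10.7 between replicates 4 and 6. The library of replicate 7 in KNO3 had the lowest total of the series, 18097331 counts, and the next lowest library held 21363761. The part of depth in the mitochondrial level of that library was not tested.

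Nuclear genes that serve the mitochondrion were read beside the mitochondrial loci, from lists chosen with results of these data known. Of 24 genes for mitochondrial RNA synthesis and processing, 15 rose and 6 fell in cyp in water against dry seeds, with a median log2 change of 0.58. Among these genes 12 rose and 5 fell in myb (median 0.25), 13 and 5 in qko (0.35), and 16 and 5 in WT (0.47). Of all loci, 40.8% rose and 38.9% fell in cyp, 34.8% and 31.3% in myb, 36.9% and 32.2% in qko, and 37.1% and 33.5% in WT, and these shares apply to each nuclear list in this comparison. Levels of nuclear genes here and below are CPM by library total, while their log2 changes are under TMM scaling. The size and even the direction of a change can differ between these scales. RPOTM, the mitochondrial RNA polymerase, had 145 ± 7.48 CPM by library total in cyp in water against 31.4 ± 1.05 dry (SD, n = 3 each; log2 1.46, SE 0.19, edgeR adjusted p = 7.7e-09). PMH1, a mitochondrial RNA helicase, had 485 ± 17.5 in cyp in water against 62.1 ± 2.69 dry, and 252 ± 8.76 in WT in water against 64.2 ± 1.29 dry (SD, n = 3 each). PMH1 rose more in cyp than in WT by 1.01 (SE 0.16, adjusted p = 8.4e-06).

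Of 8 genes for mitochondrial DNA maintenance, 8 rose and 0 fell in cyp in water, 3 and 0 in myb, 3 and 1 in qko, and 4 and 0 in WT. The 3 of 8 that rose in myb and in qko are near the share of all loci. The gene SSB1, which encodes a protein that binds single-stranded DNA, had 37.0 ± 2.38 CPM by library total in cyp in water against 9.73 ± 1.08 dry (SD, n = 3 each). Its log2 change under TMM scaling was 1.19 (edgeR adjusted p = 1.7e-12). Under total-count scaling the RNA list read 19 higher and 3 lower in cyp, 19 and 2 in myb, 19 and 1 in qko, and 21 and 1 in WT. The DNA list under that scaling read 8 and 0 in cyp, 8 and 0 in myb, 7 and 0 in qko, and 8 and 0 in WT. As given for the mitochondrial loci, 60.4% to 64.3% of all loci were higher under that scaling.

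The nuclear subunits of the respiratory complexes moved in both directions. In water against dry seeds, 21 of 39 rose and 7 fell in cyp with a median of 0.34, 11 rose and 5 fell in myb, 8 rose and 16 fell in qko, and 14 rose and 7 fell in WT. The shares that rose in myb and WT were at or below those of all loci. Under total-count scaling the counts were 33 higher and 3 lower in cyp, 34 and 1 in myb, 32 and 1 in qko, and 36 and 1 in WT. Relative to the median of all loci the subunit median in qko was -0.23 under either scaling. The iron-sulfur subunit of succinate dehydrogenase, complex II, is encoded by several nuclear genes, and SDH2-3 and SDH2-1 moved apart. SDH2-3, the form of the maturing seed, had 43.4 ± 3.23 CPM by library total in cyp in water against 400 ± 29.1 dry, and 140 ± 5.94 in WT in water against 305 ± 11.3 dry (SD, n = 3 each). SDH2-1 had 61.8 ± 2.33 in cyp in water against 8.26 ± 0.751 dry, and 37.6 ± 3.33 in WT in water against 5.56 ± 0.118 dry (SD, n = 3 each). The log2 change of SDH2-3 was -3.95 in cyp and -1.87 in WT, and that of SDH2-1 was 2.16 in cyp and 2.0 in WT (all past the threshold). SDH2-3 fell more in cyp (log2 difference -2.08, edgeR adjusted p = 4.8e-12).

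In dry seeds 26 of the 39 subunit genes were higher and 0 lower in qko than in WT (median 0.41), 16 and 0 in myb (0.25), and 1 and 9 in cyp (-0.16). Of all loci 25.4% were higher in qko, 20.6% in myb, and 16.1% higher and 13.4% lower in cyp. Without myb replicate 5 the myb count was 10. Under total-count scaling the dry cyp count was 16 higher and 0 lower, and relative to the median of all loci the subunit median was -0.19 under either scaling. For the mitochondrial loci in dry cyp seeds, 18 were higher and 0 lower under TMM and 36 and 0 under total counts. ATP5, a nuclear ATP synthase subunit, was higher than WT by a log2 of 1.0 in dry qko seeds (SE 0.09, edgeR adjusted p = 4.6e-11) and of 0.83 in dry myb seeds (SE 0.10, adjusted p = 5e-08).

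Of 8 genes for alternative respiration, 3 rose and 4 fell in cyp in water, 3 and 5 in myb, 3 and 3 in qko, and 3 and 4 in WT. The 3 that rose are near the share of all loci in each genotype. Under total-count scaling 3 were higher and 3 lower in cyp, 3 and 1 in myb, 6 and 1 in qko, and 5 and 1 in WT. AOX1A, the alternative oxidase, which passes electrons to oxygen without complexes III and IV, had 26.3 ± 6.86 CPM by library total in cyp in water against 0.614 ± 0.257 dry, and 11.2 ± 0.464 in WT in water against 0.166 ± 0.0698 dry (SD, n = 3 each). Dry WT libraries held 2 to 5 counts of AOX1A, so its fold there is of uncertain size. NDB2, an external NADH dehydrogenase, had 27.7 ± 5.19 CPM by library total in cyp in water against 76.4 ± 1.49 dry, and 95.1 ± 10.0 in WT in water against 73.1 ± 0.780 dry (SD, n = 3 each). The TMM factors of WT were 1.041 to 1.075 in water against 0.623 to 0.639 dry. Scaled by these factors, NDB2 in WT lay lower in water than dry. Under TMM scaling the change of NDB2 was more negative in cyp than in WT (log2 difference -1.83, SE 0.24, edgeR adjusted p = 2.2e-07).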

How the data were processed

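The authors deposited 1 table of estimated counts (expected counts) per transcript, made with Salmon per the submitters' processing notes. For Salmon, the version, the index and the build were not given in the sources used here. The values are not scaled for library size, and 35.5% of mitochondrial values were not whole (tolerance 0.0005). Groups follow the labels. Transcripts were summed per locus and rounded. No ribosomal RNA locus of either organelle was in the table. edgeR 4.0.16 in R 4.3.3 fitted all 45 libraries with 1 coefficient per group (quasi-likelihood F tests, TMM scaling, minimum count 10, minimum total 15), which left 18066 loci. TMM factors differ between dry and imbibed seeds. Adjusted p-values are Benjamini-Hochberg over all loci of a comparison, threshold 0.05, and SE refers to log2 fold changes. Interaction fits compare a mutant's water response with that of WT. Shares were compared by exact permutation within strata, each library taken as independent, with 12 tests adjusted together. The edgeR test, but not the permutation test, was tried on simulated data. DESeq2 1.42.0, total-count scaling, no filter, left-out libraries and a replicate block were alternatives. Loci summed with their chromosome 2 copies, those sums without qko replicate 7, and the qko shares per treatment without it were added after the data were seen.

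Described loci were named, with up to 5 others per comparison by smallest p, and of the nuclear lists the called genes with the largest changes at a mean of 1 CPM or more. Members and lists were chosen with earlier results of these data known. ATMG01130, ATMG00870, ATMG00970, ATMG00285, ATMG00590, ATMG01110, ATMG01330, ATMG01370, ATMG00630, ATMG00940, RPOTM and ATP5 were singled out after their values were seen. Replicate numbers met the rule for pairs only in qko between KNO3 and water (correlations of deviations 0.671 to 0.810) and KSCN and water (0.740 to 0.861). Sequences and coordinates were not used here.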

Additional observations from a re-analysis of the deposited data

Results flagged for a closer look

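The response to water differed between genotype labels. Between cyp and WT the edgeR interaction passed at 35 mitochondrial loci, each with the more negative change in cyp. ATMG01190, the ATP synthase subunit, differed by -3.07 on the log2 scale, and ATMG00730, the oxidase subunit, by -2.95. Leaving out single libraries gave 32 to 35 calls. Between qko and WT it passed at 3 loci, with differences of 1.23 for ATMG01130, 1.70 for ATMG01080 and 2.21 for ATMG00870. The call of ATMG01130 was lost without qko dry replicate 4 (1.14), qko water replicate 7 (0.84) or WT water replicate 8 (1.18) or 9 (1.14). That of ATMG00870 was lost without qko water replicate 7 (1.94) or WT dry replicate 9 (1.5), and that of ATMG01080 without qko dry replicate 4 (1.46) or WT dry replicate 8 (1.24), and when it was summed with its copy (1.08).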

How the results depend on the processing

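Under the replicate block, which pairs libraries that share only a number except in qko between KNO3 or KSCN and water (where it called 0 loci too), the share differences were -0.7746 for water against dry (adjusted p = 0.104, exact permutation), -0.0008 for KSCN against water (sign turned), 0.8674 for myb and 0.9883 for qko against WT (adjusted p = 0.107 and 0.837), and the plastid ratios 0.7263 for myb and 0.7377 for qko. None passed, on fewer libraries. Too few replicate numbers are shared with WT for the myb and qko tests to reach the threshold, whatever the values. Those tests therefore cannot show whether the differences hold under pairing. The block gave 25 called loci in qko in water against dry, 38 in dry qko and 29 in myb in water against WT, 2 and 5 in the myb and qko differences of response, and 9 respiratory subunits in myb in water against WT. The cyp share difference was -0.7035 without storage counts. Total-count scaling gave 17 called loci in myb, 13 in qko and 6 in WT in water against dry, and 36 in dry cyp against WT. In water against dry it gave 8, 7 and 8 DNA maintenance genes in myb, qko and WT, 35 and 37 respiratory subunits in myb and WT and 4 alternative respiration genes in myb, and 16 respiratory subunits in dry cyp against WT. ATMG00170 in cyp in water against dry was 0.0706 under it, against -0.67. DESeq2 called 1 locus in the myb difference of response, 1 in cyp with KNO3 and 1 with KNO3 over all genotypes, and no filter 5 in the qko difference.

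Leaving out libraries moved the share difference between -0.9409 and -0.7711 for water against dry, -0.1014 and 0.1677 for KNO3, -0.1064 and 0.107 for KSCN, -0.6619 and -0.516 for cyp, 0.7371 and 0.8235 for myb, and 0.6487 and 1.105 for qko. The plastid ratio moved between -0.1303 and 0.0348, -0.0202 and 0.1526, -0.1484 and 0.0022, -0.905 and -0.6911, 0.6308 and 0.7052, and 0.9073 and 1.177 in the same order. Called loci in water against dry were 49 to 56 in cyp, 30 to 44 in myb, 3 to 40 in qko and 18 to 26 in WT. Against WT they were 5 to 15, 11 to 28 and 11 to 38 in dry cyp, myb and qko, and 30 to 36, 7 to 13 and 20 to 50 in water, with 0 to 1 and 1 to 6 for the myb and qko differences of response. Called respiratory subunits were 10 to 16 in dry myb, and 8 to 16 in myb and 8 to 15 in qko in water against WT. Described genes called without qko replicate 7, an alternative chosen after the data were seen, were 9 in dry qko and 14 in water against WT, 15 in qko in water against dry and 2 in the qko difference of response. The qko share over WT without it was 0.6136 dry, 0.693 in water, 0.4585 in KNO3 and 0.8296 in KSCN, and the plastid ratio 1.564, 0.8186, 0.5602 and 0.6865, on the log2 scale. The cause of these moves was not tested. Of 61 results for named loci, in 366 refits with another setting 356 kept direction and call, 6 lost and 3 gained the call and 1 turned. Among fits without a library, 404 kept both, 35 lost and 2 gained the call, and 2 turned, both ATMG01370 in cyp in water against dry (-0.0433 and -0.0104, in a range up to 0.1224). Summing copies moved no count of called loci by over 1.5 times. Leaving out ribosomal RNA loci was not run, since the table holds none. The low counts of many loci and of the plastid limit what could be detected.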
